A study of Mus musculus with 21 samples.

Results

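Cxxc5 knockout mouse embryonic stem cells (ESCs) were compared with wild type ESCs in a table of gene expression that holds 3 replicates of each condition, 6 in all, beside 21 samples that the labels list for the whole series. The members were chosen by the condition column of that table alone. The labels name 2 ESC RNA samples per genotype, from 2 independent lines each, so the 3 replicates of a condition were not matched to samples, and at least 1 pair of them may share a line. They are called here wild type replicates 0, 1 and 2 and knockout replicates 0, 1 and 2, as the table numbers them. Both genotypes were of mixed 129/C57BL/6 strain from the V6.5 background. The cells were grown in medium with serum and LIF on feeder fibroblasts, pre-plated to take the feeders away and kept overnight on gelatin before RNA was extracted. The wild type carried no labelled allele and the other genotype is labelled Rinf Knockout, Rinf being another name of Cxxc5. The deleted stretch of the gene is not stated in the labels.

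The product of Cxxc5 contacts DNA through its CXXC zinc finger, which recognises CpG dinucleotides without a methyl group, and is also known as a feedback inhibitor of Wnt signalling through Dishevelled. ESCs in serum and LIF keep themselves undifferentiated through a network of transcription factors. Pou5f1 and Sox2 form its core, and a naive layer that includes Esrrb, Klf4, Tfcp2l1 and Tbx3 is tied to LIF signalling and is shut down as cells prepare to differentiate. The Tet enzymes oxidise 5-methylcytosine in these cells. The series title names the pluripotency network and the Tet enzymes as what loss of the gene was asked about.

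Depth ran from 9.85 to 13.1 M fragments (M, 1e6) per replicate, of which 24.6% to 31.6% fell on Rn45s, the ribosomal RNA precursor. The summed level of 10 stem cell defining markers lay between 2834 and 3092 FPKM (fragments per kilobase of transcript and 1e6 mapped fragments) and overlapped between genotypes. Across 10999 genes with a mean of at least 10 fragments, log2 levels correlated at 0.986 to 0.992 among wild type replicates, at 0.993 to 0.995 among knockout replicates and at 0.989 to 0.992 between genotypes. These are descriptions across genes, which are not independent. Wild type replicate 1 stood apart in its fibroblast markers, but it was not the one farthest from the knockout. Over the 10999 genes it differed more than 1.5-fold on the log2(FPKM + 1) scale from the 3 knockout replicates in 254, 255 and 245 genes. Wild type replicate 2 did so in 340, 227 and 361 genes, and wild type replicate 0 in 237, 207 and 251. Wild type replicates 0 and 2 differed so in 173 genes, and replicate 1 from these in 304 and 401. Of 14 markers of feeder fibroblasts, none was at 0 in every replicate, and their summed level was 13.6, 49.9 and 13.2 FPKM in the wild type replicates and 24.8, 25.2 and 19.1 FPKM in the knockout replicates. Tagln, a smooth muscle and fibroblast actin-binding gene, carried much of the knockout sums, at 3.86, 14.1 and 5.98 FPKM in wild type and 16.1, 13 and 11.2 FPKM in knockout. Over the other 13 markers the sums were 9.78, 35.9 and 7.19 FPKM in wild type and 8.68, 12.2 and 7.92 FPKM in knockout, so wild type replicate 1 alone stood apart in them. The collagen gene Col1a1 stood at 2.90, 10.9 and 1.74 FPKM in wild type and at 2.51, 3.05 and 2.10 FPKM in knockout. The 6 Y-linked genes summed to 9.35, 10.9 and 21.7 FPKM in wild type and to 5.34, 13.1 and 2.95 FPKM in knockout, so they too varied within each genotype. Their part in the results was not tested. Counts of edgeR calls are also given below without wild type replicate 1, while counts of genes whose replicates lie wholly apart use all 6. Leaving out that replicate was chosen after its fibroblast markers were seen. The edgeR calls within gene lists were counted with no other replicate left out.

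**Figure D1:**
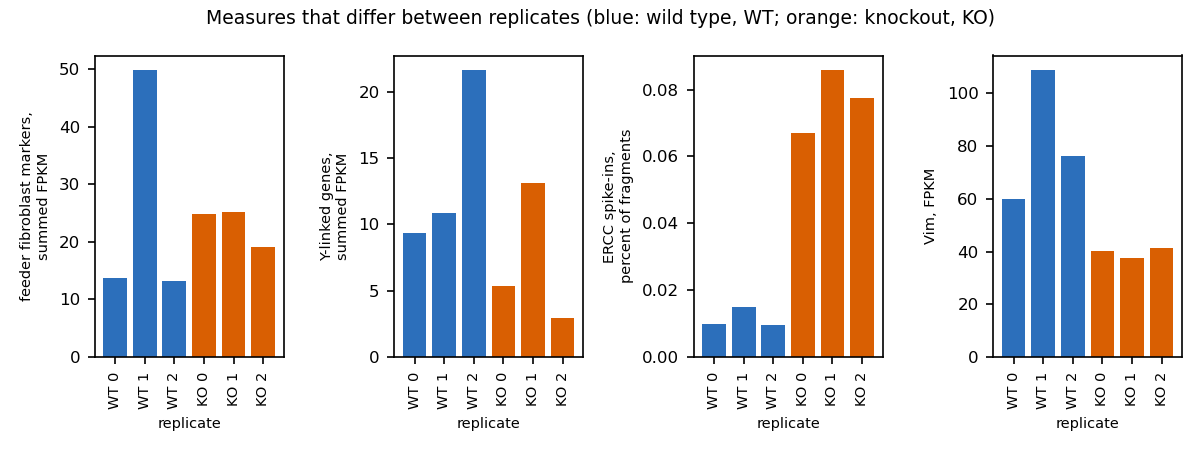
Bars give 1 value per replicate from 0 upward: summed FPKM of 14 feeder fibroblast markers, summed FPKM of 6 Y-linked genes, the percent of fragments on ERCC spike-in RNAs, and FPKM of Vim. Wild type replicate 1 holds the highest fibroblast sum, 49.9 FPKM, and the 3 knockout replicates hold the highest spike-in shares.

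Cxxc5 itself was measured at 25.6, 23.2 and 23.7 FPKM in the wild type replicates and at 4.85, 4.87 and 5.69 FPKM in the knockout replicates. All 3 knockout values lay below all 3 wild type values, and the labels of the conditions held for the targeted gene. The gene lies at chr18:35829379-35861693 of mm10. The mean went from 24.1 ± 1.26 (SD, n = 3) to 5.13 ± 0.482 (SD, n = 3) FPKM, which leaves 21.3% of the wild type level. The knockout replicates held 104, 115 and 134 fragments of the gene, against 567, 496 and 671 in wild type. Whether these fragments come from exons that the deletion spares was not tested. The difference was -2.04 ± 0.08 (SE) on the log2(FPKM + 1) scale, with an adjusted p of 5.43e-05 by limma.

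Few other genes passed a test. Limma, the main test, used 11133 genes with a mean of at least 1 FPKM and called 2 genes higher in knockout (0.0180% of those tested) and 2 lower (0.0180%) at an adjusted p under 0.05. With wild type replicate 1 left out it called 5 higher and 3 lower, with wild type replicate 2 left out 4 and 2, and with knockout replicate 1 left out 4 and 1. Leaving out any of the other replicates gave 2 and 1. With all replicates the lower ones were Cxxc5 and Nid1. The higher ones were the small nucleolar RNAs Snord82 and Snora26, and both rest on a handful of fragments. Snord82 was listed at 0 in the 3 wild type replicates and held 2, 1 and 1 fragments in the knockout replicates, which its short length turned into 15322, 6533 and 11397 FPKM. Snora26 was listed at 0 in wild type and held 3.21, 0.57 and 1.22 estimated fragments in knockout. No fold is given for either, since both conditions lie at or near the 3 fragments that a count of 0 allows. Restricted to 10999 genes with a mean of at least 10 fragments, a restriction added after these values were seen, limma called 0 genes higher and 2 lower, with 587 higher and 390 lower at an unadjusted p under 0.05.

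The table also gives fragment counts, and edgeR's quasi-likelihood test on them called more genes. Among 12508 tested, 4 were higher in knockout (0.0320%) and 22 lower (0.176%). Both limma calls on genes with more than a few fragments, Cxxc5 and Nid1, were among the 26. All 26 had 3 knockout values wholly above or wholly below the 3 wild type values. Over all genes tested by limma, 929 lay wholly above (8.34%) and 651 wholly below (5.85%), and 954 had an unadjusted p under 0.05 (8.57%). The count depended on each replicate. Without wild type replicate 1, whose fibroblast markers were high, edgeR called 106 genes higher (0.836% of 12687) and 82 lower (0.646%), among them all 26. It called 2 higher and 9 lower without wild type replicate 0, and 1 and 9 without wild type replicate 2. It called 0 and 2 without knockout replicate 0, 1 and 6 without knockout replicate 1, and 1 and 5 without knockout replicate 2. Cxxc5 and Nid1 were the genes that edgeR called in all 6 of these fits. Of the 26 genes, 10 overlap another annotated gene model, and since the use of strand is not stated their fragments may not be separable from it.

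**Figure D2:**
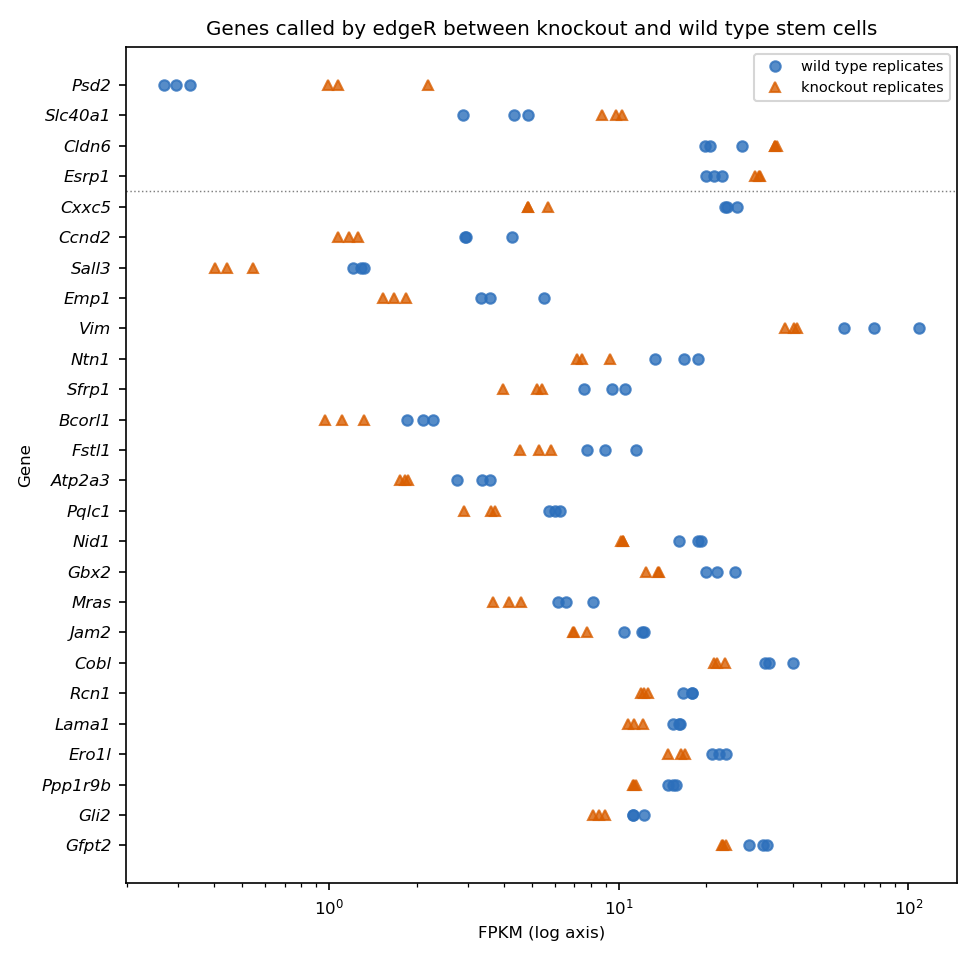
Each row is 1 of the 26 genes called by edgeR, and each symbol is the FPKM of 1 replicate on a log axis, circles for wild type and triangles for knockout. The 4 genes above the dotted line were higher in knockout and the 22 below it were lower, and the 2 conditions do not overlap for any of them.

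The genes that were lower in knockout included parts of the basement membrane and of the cell surface. Nid1 encodes nidogen, which links laminin to collagen IV in basement membranes. It was measured at 19.2, 16.1 and 18.7 FPKM in wild type and at 10.3, 10.3 and 10.2 FPKM in knockout. The knockout values were nearly equal to one another and lay below every wild type value. The log2 difference was -0.75 ± 0.08 (SE), with an adjusted p of 0.0437 by limma and 0.00195 by edgeR. Limma lost the call without any single replicate other than wild type replicate 1, with adjusted p between 0.117 and 0.36. Lama1, the alpha chain of the laminin that the early embryo makes, was measured at 16.2, 16.1 and 15.3 FPKM in wild type and at 10.7, 12.1 and 11.2 FPKM in knockout, again without overlap. Its edgeR adjusted p was 0.0139, and 0.133 by limma. Jam2, a junctional adhesion molecule, went from 12.0, 10.4 and 12.2 to 6.92, 7.01 and 7.76 FPKM with an edgeR adjusted p of 0.00886.

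Because the CXXC zinc finger binds unmethylated CpG, the 250 bases before the start that the RefSeq promoter table gives for 3 called genes are shown with each CG in capitals, from RefSeq on build GRCm38.p6, 5′ to 3′ on the strand of the gene. Nid1 (chr13:13437352-13437601, plus strand) was the most strongly called gene with an entry, and Gbx2 (chr1:89931177-89931426, minus strand) and Cldn6 (chr17:23679115-23679364, plus strand) were chosen after their values were seen, as a lower transcription factor and a higher junction gene. The annotated Cldn6 gene starts at 23679348, so the last bases of its window lie inside the gene.
Nid1: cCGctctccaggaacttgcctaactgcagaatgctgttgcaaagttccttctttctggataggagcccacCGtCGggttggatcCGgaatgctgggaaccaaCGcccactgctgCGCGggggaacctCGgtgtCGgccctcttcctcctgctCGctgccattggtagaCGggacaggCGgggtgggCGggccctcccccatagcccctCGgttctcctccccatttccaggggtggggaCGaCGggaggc
Gbx2: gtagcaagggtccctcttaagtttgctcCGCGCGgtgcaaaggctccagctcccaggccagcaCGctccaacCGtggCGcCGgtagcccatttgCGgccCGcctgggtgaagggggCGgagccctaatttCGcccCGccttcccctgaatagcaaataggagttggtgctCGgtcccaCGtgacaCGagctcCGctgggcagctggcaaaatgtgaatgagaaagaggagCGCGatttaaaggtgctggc
Cldn6: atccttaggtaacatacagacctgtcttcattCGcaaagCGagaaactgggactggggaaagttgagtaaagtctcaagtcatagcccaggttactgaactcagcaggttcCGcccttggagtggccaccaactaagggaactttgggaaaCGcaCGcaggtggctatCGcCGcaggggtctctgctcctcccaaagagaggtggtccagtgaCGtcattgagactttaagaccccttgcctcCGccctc
The windows hold 16 CG in Nid1, 18 in Gbx2 and 9 in Cldn6. CG reads the same on both strands and cannot overlap itself. Of 32851 windows of this length in the promoter table, 92.1% hold at least 1 CG, the median is 6, and 25.4%, 21.7% and 40.3% hold at least as many as Nid1, Gbx2 and Cldn6. The match is a description of the letters, and neither binding nor methylation at these windows was analysed here. Of the 26 genes called by edgeR, 13 have an entry in that table.

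Vim, which encodes the intermediate filament vimentin of mesenchymal cells, was measured at 59.8, 109 and 76.2 FPKM in wild type and at 40.3, 37.5 and 41.3 FPKM in knockout. The conditions did not overlap, and the wild type spread was wide because replicate 1 stood highest, as it did for the fibroblast markers. The difference was -0.98 ± 0.19 (SE) on the log2 scale, with adjusted p of 0.0325 by edgeR and 0.234 by limma. Without that replicate the edgeR difference was -0.79 with an adjusted p of 0.00195. Fewer cells that hold an RNA and less of that RNA per cell cannot be told apart in such bulk samples. Fstl1, a secreted glycoprotein of mesenchyme, was also highest in wild type replicate 1, at 7.78, 11.4 and 8.98 FPKM against 5.27, 4.55 and 5.85 FPKM in knockout. Emp1, a small membrane protein, was highest in wild type replicate 2, at 3.59, 3.34 and 5.50 FPKM against 1.53, 1.67 and 1.84 FPKM.

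Several of the lower genes encode regulators of signalling and the cell cycle. Ccnd2 encodes cyclin D2, which drives cells out of the first gap phase. Its level was 2.95, 4.26 and 2.96 FPKM in wild type and 1.07, 1.17 and 1.25 FPKM in knockout, with no overlap. After Cxxc5 this was the second largest of the 22 decreases by edgeR, -1.54 on its log2 scale, with an adjusted p of 0.00432 (0.0869 by limma). Ntn1, the guidance cue netrin-1, was measured at 16.8, 13.3 and 18.8 FPKM in wild type and at 7.19, 9.34 and 7.47 FPKM in knockout. Its lowest wild type value exceeded its highest knockout value, and its adjusted p was 0.00886 by edgeR and 0.118 by limma. Sfrp1, a secreted antagonist that binds Wnt ligands, was measured at 10.5, 7.59 and 9.49 FPKM in wild type and at 5.23, 3.96 and 5.44 FPKM in knockout. The conditions did not overlap, and the adjusted p was 0.0265 by edgeR and 0.211 by limma. Gli2, a transcription factor of Hedgehog signalling, differed less, from 11.2 to 12.2 FPKM in wild type against 8.15 to 8.97 FPKM in knockout. Mras, a small GTPase of the Ras family, ranged from 6.16 to 8.16 FPKM in wild type and from 3.69 to 4.60 FPKM in knockout.

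3 transcriptional regulators were among the lower genes besides Gli2 and Cxxc5. Gbx2 is a homeobox factor that LIF and STAT3 induce in ESCs. Its values were 25.3, 21.8 and 20.0 FPKM in wild type and 13.8, 12.4 and 13.7 FPKM in knockout, with a gap between the conditions. The log2 difference was -0.70 ± 0.09 (SE), with adjusted p of 0.0105 by edgeR and 0.0869 by limma. Sall3, a zinc finger factor of the spalt family, was measured at 1.32, 1.28 and 1.21 FPKM in wild type and at 0.401, 0.441 and 0.546 FPKM in knockout. It fell under the minimum mean of 1 FPKM and was tested by edgeR alone, at an adjusted p of 0.00886. Bcorl1, a corepressor related to BCOR, ranged from 1.85 to 2.27 FPKM in wild type and from 0.968 to 1.31 FPKM in knockout.

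The other lower genes act in the secretory pathway, metabolism and the cytoskeleton. Cobl, an actin nucleator, was measured at 39.8, 32.1 and 33.1 FPKM in wild type and at 23.3, 21.3 and 21.8 FPKM in knockout. It was well covered, with at least 1314 fragments in each replicate, and its edgeR adjusted p was 0.00886. Rcn1, a calcium-binding protein of the endoplasmic reticulum, ranged from 16.7 to 17.9 FPKM in wild type and from 11.9 to 12.6 FPKM in knockout. Ero1l, the oxidase that drives disulfide formation there, ranged from 21.0 to 23.4 and from 14.7 to 16.9 FPKM. Atp2a3, a calcium pump of that organelle, ranged from 2.77 to 3.59 FPKM in wild type and from 1.76 to 1.86 FPKM in knockout. Gfpt2, an enzyme that opens the hexosamine pathway, Ppp1r9b, the actin-binding scaffold spinophilin, and Pqlc1, a membrane protein with PQ-loop repeats, complete the 22. Their log2 differences were -0.40, -0.41 and -0.67, with edgeR adjusted p of 0.0429, 0.0301 and 0.0325. Across the genes of this paragraph limma's adjusted p lay between 0.0869 and 0.212, so none passed the main test.

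Slc40a1 had the largest increase among the genes called by edgeR that limma also tested. It encodes ferroportin, the transporter through which cells export iron. It was measured at 4.33, 4.83 and 2.89 FPKM in wild type and at 9.74, 8.72 and 10.3 FPKM in knockout, so that the highest wild type value lay well below the lowest knockout value. The difference was 1.09 ± 0.15 (SE) on the log2 scale, with adjusted p of 0.00886 by edgeR and 0.103 by limma. Esrp1 encodes a splicing regulator of epithelial cells. It was measured at 21.4, 22.6 and 20.1 FPKM in wild type and at 29.6, 30.8 and 30.4 FPKM in knockout, tight in both. Its difference was 0.49 ± 0.06 (SE), with adjusted p of 0.0141 by edgeR and 0.0869 by limma. Cldn6, a claudin of early epithelia, was measured at 19.9, 26.6 and 20.6 FPKM in wild type and at 35.2, 34.7 and 34.6 FPKM in knockout. The knockout values were nearly equal, wild type replicate 1 came closest to them, and the adjusted p was 0.0437 by edgeR and 0.184 by limma.

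Psd2 was the fourth gene higher by edgeR. It encodes an exchange factor for ARF GTPases and is a neighbour of the targeted gene, at chr18:35963872-36014715, 102178 bases from Cxxc5 with 4 annotated gene models between them. It was measured at 0.295, 0.267 and 0.330 FPKM in wild type and at 1.07, 2.19 and 0.989 FPKM in knockout, from 14, 12 and 20 fragments against 49, 111 and 50. The conditions did not overlap, and its edgeR adjusted p was 0.0299. Its mean lay under the minimum of 1 FPKM, so limma did not test it, and it overlaps Nrg2, so fragments of the 2 genes may not be separable. Of the 26 genes, 4 lie on chromosome 18, a chromosome that holds 2.59% of the genes tested by edgeR with a known position. They are the targeted gene Cxxc5 itself, Psd2, Sall3 and Pqlc1. Sall3 (chr18:80966989-80987021) and Pqlc1 (chr18:80255241-80292724) lie much farther from Cxxc5 than Psd2 does. Whether an effect of the edited locus plays a part was not tested.

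Among the naive pluripotency factors, 15 of 15 were tested and most leaned lower in knockout, but Gbx2 was the one that edgeR called and limma called none. Their median log2 difference was -0.19, against 0.01 over all genes tested. By limma 6 of the 15 had an unadjusted p under 0.05, against 8.57% of all genes. Of the 15, 4 (26.7%) lay wholly below wild type against the 5.85% given above. Tbx3, a T-box factor that LIF signalling sustains, was measured at 19.6, 16.5 and 17.6 FPKM in wild type and at 12.0, 12.2 and 14.0 FPKM in knockout. These values did not overlap, and the adjusted p was 0.235 by limma and 0.0501 by edgeR, just outside the threshold. Tfcp2l1, a factor that LIF and STAT3 induce, stood at 47.8, 38.5 and 45.5 FPKM in wild type and at 32.9, 35.3 and 34.1 FPKM in knockout, without overlap and with an edgeR adjusted p of 0.106. Klf5, a Krüppel-like factor, was the fourth member without overlap, from 140 to 163 against 127 to 139 FPKM. DESeq2 called Tfcp2l1, Tbx3 and Gbx2 lower, among 43 genes it called lower.

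Other naive factors overlapped. Klf4 was measured at 52.9, 41.9 and 53.2 FPKM in wild type and at 38.1, 43.1 and 38.5 FPKM in knockout, so wild type replicate 1 fell within the knockout values. Esrrb, an orphan nuclear receptor, showed the same arrangement, at 115, 97.0 and 111 against 90.2, 99.2 and 93.6 FPKM. Prdm14, a repressor of FGF signalling and of the DNA methyltransferases, was measured at 5.93, 4.49 and 9.55 FPKM in wild type and at 3.95, 4.57 and 4.22 FPKM in knockout. Nanog was measured at 157, 112 and 168 FPKM in wild type and at 123, 129 and 130 FPKM in knockout, with wild type replicate 1 the lowest of the 6. Klf2 and Zfp42 spread widely within a genotype, Klf2 from 89.8 to 168 FPKM in wild type and Zfp42 from 128 to 221 FPKM in knockout. Dppa3, a maternal factor that protects the methylation of the early embryo, had the one positive difference in the list, 0.13. Without wild type replicate 1, edgeR called 7 of the 15 lower (Prdm14, Gbx2, Tbx3, Tfcp2l1, Klf4, Nanog and Esrrb) and 0 higher, against 0.646% of all genes tested that way. That replicate was left out after it was seen to hold the most fibroblast marker RNA. Its Klf4, Nanog and Esrrb values were also the lowest in wild type, within or below the knockout values.

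The core factors differed little. Pou5f1 was measured at 647, 689 and 608 FPKM in wild type and at 579, 642 and 618 FPKM in knockout, and its log2 difference was -0.08 with a 95% interval of -0.25 to 0.09. Sox2 was measured at 188, 167 and 198 FPKM in wild type and at 170, 184 and 178 FPKM in knockout, with an interval of -0.22 to 0.12. The values overlapped for both. Of the 16 tested core and general pluripotency genes, limma, edgeR and DESeq2 called 0 and 0 had an unadjusted p under 0.05 by limma. Without wild type replicate 1, edgeR called the Nodal coreceptor Tdgf1 lower, against 0.646% of all genes in that fit. Tdgf1 was measured at 217, 153 and 196 FPKM in wild type and at 179, 170 and 168 FPKM in knockout, so the replicate left out was the lowest. Otx2, which drives the step to primed epiblast, was measured at 7.71, 9.05 and 13.6 FPKM in wild type and at 13.6, 15.1 and 11.9 FPKM in knockout, and the conditions overlapped. Fgf5, the classic marker of that step, stayed low, between 0.324 and 1.72 FPKM in wild type and between 1.37 and 2.16 FPKM in knockout. Their log2 differences of 0.41 and 0.50 did not pass, with adjusted p of 0.595 and 0.642 by limma.

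For the Tet enzymes, which the series title names, no difference beyond the spread between replicates was detected. Tet1 was measured at 144, 120 and 129 FPKM in wild type and at 133, 132 and 134 FPKM in knockout. Its log2 difference was 0.03 with a 95% interval of -0.14 to 0.20, so a change of 1.5-fold or more lies outside the interval. Tet2 was measured at 52.4, 38.8 and 48.9 FPKM in wild type and at 41.3, 44.1 and 41.6 FPKM in knockout, with an interval of -0.37 to 0.12. The lowest wild type value, that of replicate 1, lay below all knockout values, and without that replicate edgeR gave a difference of -0.27 with an adjusted p of 0.035. Tet3 was low in both, from 1.07 to 1.80 FPKM in wild type and from 1.42 to 1.60 FPKM in knockout. Tdg, the glycosylase that removes the oxidised bases, ranged from 4.42 to 5.53 and from 4.93 to 5.98 FPKM. Of the 11 tested genes of DNA demethylation, limma, edgeR and DESeq2 called 0, and 0 had an unadjusted p under 0.05 by limma.

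Among DNA methyltransferases and the proteins that guard imprints, limma and edgeR called 0 of 13, and DESeq2 called Dnmt3l. Dnmt3l, the cofactor of the de novo methyltransferases, was measured at 126, 155 and 130 FPKM in wild type and at 171, 175 and 181 FPKM in knockout. The conditions did not overlap, and the difference was 0.36 ± 0.08 (SE) with adjusted p of 0.372 by limma and 0.179 by edgeR. Dnmt3b was measured at 71.7, 108 and 63.0 FPKM in wild type and at 105, 98.3 and 97.8 FPKM in knockout. Wild type replicate 1 was the highest of all 6 and the other wild type replicates the lowest. Without it edgeR called Dnmt3b and Dnmt3l higher, by 0.57 and 0.44 on its log2 scale with adjusted p of 0.00164 and 0.00264. That fit called 0.836% of all genes higher, and the replicate left out also held the wild type Dnmt3l value nearest the knockout. Dnmt3a overlapped, from 20.2 to 30.7 FPKM in wild type and from 25.2 to 29.5 FPKM in knockout. The maintenance enzyme Dnmt1 had a 95% interval of -0.19 to 0.11 and its recruiter Uhrf1 one of -0.17 to 0.19. Zfp57, which keeps methylation at imprinted regions, lay wholly below wild type, from 117 to 123 against 131 to 145 FPKM, with an adjusted p of 0.512 by limma.

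**Figure D3:**
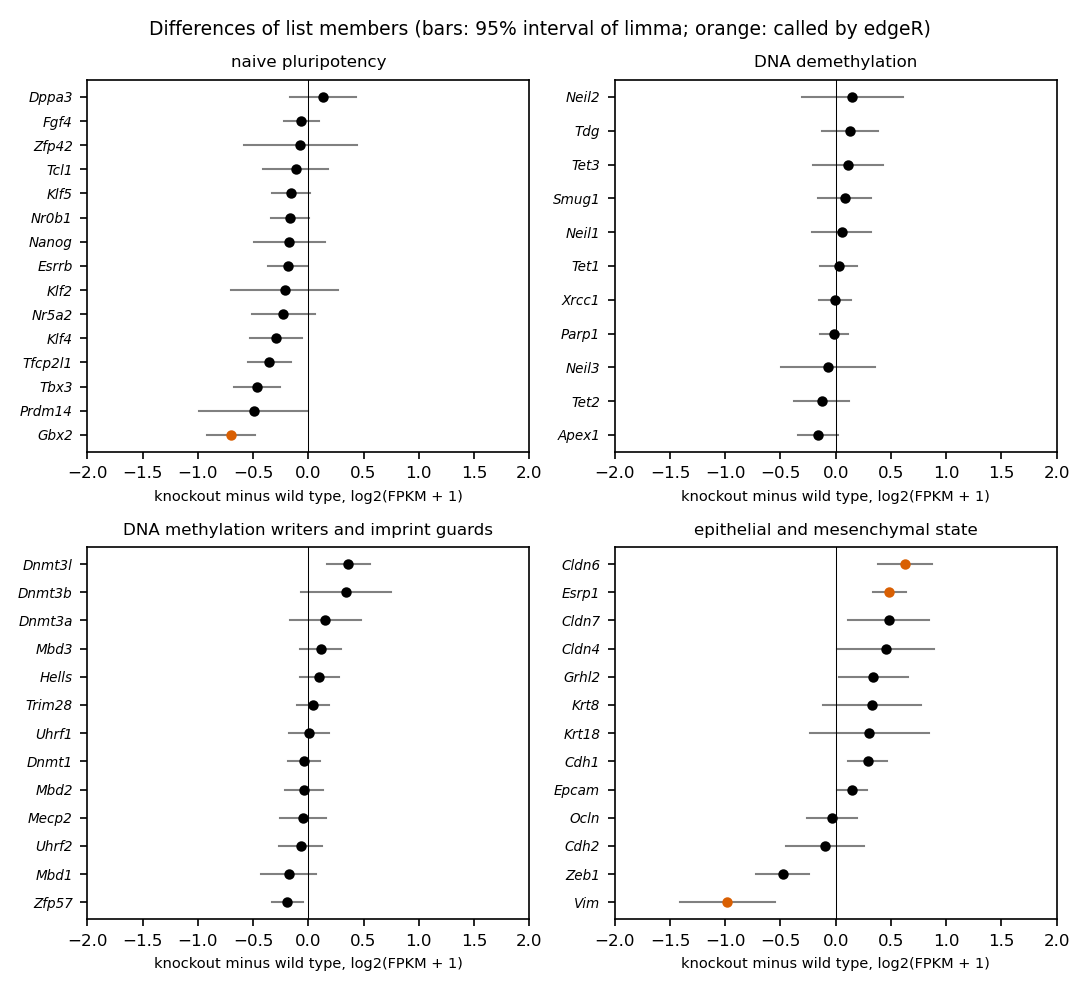
Each point is the limma difference of 1 list member, knockout minus wild type on the log2(FPKM + 1) scale, with its 95% interval; orange marks genes called by edgeR. Of the naive pluripotency list 14 of 15 points lie left of 0, the demethylation genes lie on both sides of 0, and Vim and Zeb1 lie opposite to the epithelial genes.

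In the epithelial and mesenchymal list, edgeR tested 16 members and called 2 epithelial genes higher (Cldn6 and Esrp1) and 1 mesenchymal gene lower (Vim). Over all genes edgeR called 0.0320% higher and 0.176% lower. Limma tested 13 and called 0, and 9 had an unadjusted p under 0.05 by limma, against 8.57% of all genes. All 3 knockout values exceeded wild type in 5 of 13 (38.5%, against the 8.34% above) and lay below it in 2 of 13 (15.4%). Cdh1, which encodes E-cadherin, was measured at 167, 176 and 146 FPKM in wild type and at 201, 194 and 203 FPKM in knockout. The values were apart, and the difference of 0.29 ± 0.08 (SE) had an adjusted p of 0.414 by limma and 0.203 by edgeR. Cldn7, another claudin, was measured at 15.2, 15.1 and 9.86 FPKM in wild type and at 18.5, 20.7 and 17.1 FPKM in knockout. Zeb1, a repressor of E-cadherin, was measured at 2.35, 2.32 and 2.35 FPKM in wild type and at 1.33, 1.22 and 1.65 FPKM in knockout. Its conditions were clearly apart at low levels, with an edgeR adjusted p of 0.0703. With all replicates DESeq2 called Cdh1, Cldn6 and Esrp1 higher and Vim and Zeb1 lower, among 21 genes it called higher and 43 lower. The neural cadherin gene Cdh2 overlapped between 0.781 and 1.52 FPKM. Without wild type replicate 1, edgeR called 6 members higher (Cldn6, Cldn4, Krt8, Grhl2, Esrp1 and Cdh1) and 2 lower (Vim and Zeb1), against 0.836% and 0.646% of all genes. Krt8 and Vim were highest among the wild type replicates in that replicate, and the part of its fibroblast RNA in these calls was not tested. Among the fibroblast markers themselves, Tagln was called higher in the same fit, by 1.4 on the log2 scale with an adjusted p of 0.00483 by edgeR.

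In the list of collagens, laminins and matrix proteins, 18 of 18 were tested. Nid1 and Lama1 were called lower by edgeR and Nid1 by limma, against 0.176% and 0.0180% of all genes, and the median difference was -0.18. The other members overlapped between conditions. Fn1, which encodes fibronectin, ranged from 121 to 156 FPKM in wild type and from 103 to 121 FPKM in knockout, with an adjusted p of 0.512 by limma. With wild type replicate 1 left out, edgeR called Col5a1, Lama5 and Lamb1 higher beside the 2 lower genes, and Col5a1 was measured at 2.26, 7.55 and 2.46 FPKM in wild type, its highest value in that replicate, against 3.48 to 3.66 FPKM in knockout. Matrix genes were thus called in both directions in that fit, which called 0.836% of all genes higher and 0.646% lower.

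The lists of FGF, Wnt, Nodal and BMP signalling held no edgeR call, and that of LIF and STAT3 targets held Gbx2. The Wnt antagonist Sfrp1, which edgeR called lower, is not a member of the Wnt lists. Among 16 FGF and ERK feedback genes 3 (18.8%) lay wholly above wild type and 2 (12.5%) wholly below, against 8.34% and 5.85% of all genes. Dusp4, a phosphatase that ERK induces, was measured at 10.4, 12.8 and 8.36 FPKM in wild type and at 17.6, 16.6 and 16.4 FPKM in knockout, and its edgeR adjusted p was 0.0762. The FGF receptor Fgfr2 was measured at 3.60, 4.51 and 2.81 FPKM in wild type and at 5.68, 5.21 and 6.15 FPKM in knockout, also apart. For Dusp4 and Fgfr2 wild type replicate 1 held the wild type value nearest the knockout. When it was left out edgeR called Dusp4, Fgfr2 and Fgfr1 higher, against 0.836% of all genes in that fit. With all replicates DESeq2 called Fgfr2 and Dusp4, among 21 genes it called higher. The ERK target Etv4 leaned the other way, from 38.9 to 52.6 FPKM in wild type and from 35.4 to 37.3 FPKM in knockout.

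Cxxc5 is known as an inhibitor of Wnt signalling, and the Wnt targets gave no common direction. Of 17 in the list 10 were tested by limma, with a median difference of -0.07, 1 (10%) wholly above and 2 (20%) wholly below wild type, against 8.34% and 5.85% of all genes. Cdx1, a homeobox target of Wnt, was measured at 2.42, 1.25 and 1.51 FPKM in wild type and at 0.562, 0.739 and 0.571 FPKM in knockout, with an edgeR adjusted p of 0.177. Notum, an enzyme that inactivates Wnt ligands, ranged from 10.2 to 11.7 FPKM in wild type and from 7.07 to 9.18 FPKM in knockout. Tcf7l1, the repressor that acts at Wnt targets in ESCs, was measured at 23.2, 27.4 and 17.4 FPKM in wild type and at 32.9, 30.7 and 32.1 FPKM in knockout, and DESeq2 called it higher. Of the Nodal and BMP genes, Lefty2, an inhibitor of Nodal, was measured at 18.5, 19.1 and 21.5 FPKM in wild type and at 15.7, 13.6 and 12.96 FPKM in knockout. Its edgeR adjusted p was 0.0804, and DESeq2 called it lower. In the edgeR fit without wild type replicate 1, Cdx1 and Lefty2 were called lower and Tcf7l1 higher, with adjusted p of 0.0341, 0.028 and 0.00949. That fit called 0.646% of all genes lower and 0.836% higher. The replicate left out held the wild type value nearest the knockout for Cdx1 and Tcf7l1, though not for Lefty2.

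H19, an imprinted RNA expressed from the maternal allele, had the largest difference among 21 tested imprinted genes without passing a test. It was measured at 16.5, 19.4 and 19.7 FPKM in wild type and at 3.56, 11.1 and 7.25 FPKM in knockout, a wide spread that did not reach the wild type values. The difference was -1.34 ± 0.30 (SE), with adjusted p of 0.37 by limma and 0.0762 by edgeR, and 0.0349 by edgeR without wild type replicate 1. Mest and Peg10, which are expressed from the paternal allele, lay wholly above wild type, from 24.1 to 27.6 against 30.5 to 33.2 FPKM and from 62.5 to 76.9 against 84.1 to 92.3 FPKM. Of the 21 genes, 2 (9.52%) lay wholly above and 1 (4.76%) wholly below wild type, near the 8.34% and 5.85% of all genes. The median log2 difference of the 21 was -0.005. Among 14 tested germline genes that methylation silences, the homeobox gene Rhox6 was measured at 18.7, 21.1 and 22.5 FPKM in wild type and at 27.1, 34.1 and 33.6 FPKM in knockout, with an adjusted p of 0.212 by limma and 0.125 by edgeR. The iron handling list held no call besides Slc40a1 in 11 tested. Its members Hmox1, which degrades heme, and Steap3, an iron reductase, lay wholly above wild type but by 0.20 and 0.33 on the log2 scale, with adjusted p of 0.473 and 0.484 by limma. In that list 3 of 11 (27.3%) lay wholly above wild type and 1 (9.09%) wholly below, against 8.34% and 5.85% of all genes.

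Of the 35 lists looked at, 29 held no edgeR call and 6 held 1 or more, and Gbx2 and Lama1 each count in more than one list. In the fit without wild type replicate 1, 20 lists held a call. The lists of cell cycle and replication genes, p53 targets, the integrated stress response, glycolysis and hypoxia, ribosomal proteins, respiratory subunits and Polycomb complexes held 0 in either fit and 0 by DESeq2, with median log2 differences between -0.06 and 0.07 and at most 2 members each at an unadjusted p under 0.05 by limma. Ccnd2, which edgeR called lower, is not a member of the cell cycle list. Most genes of primitive streak, mesoderm and the 2-cell-like state stayed under the minimum of 1 FPKM. Limma tested 2 of 13, 3 of 16 and 1 of 14, and edgeR 4, 8 and 1.

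The embryoid body experiment of the same study offers other libraries of undifferentiated cells, 2 of each genotype at day 0. They came from 2 independent lines per genotype, were sequenced as single-end reads and were normalized in a separate table, so the values are set side by side with no test across tables. Whether the lines are the ones behind the stem cell table is not given. All 26 genes called by edgeR had the same direction at day 0 of that table, and in all 26 the 2 knockout libraries lay wholly on that side of the 2 wild type libraries. Over all 11133 genes tested by limma, 64.2% had the same direction and 36.9% were also apart in that direction. The 26 genes were all wholly apart in the stem cell table, and over every gene of that kind the shares were higher. Of the 929 wholly above wild type 77.0% had the same direction and 51.6% were apart in it, and of the 651 wholly below 83.9% and 59.9%. Of the 4 limma calls 3 had the same direction, namely Cxxc5, Nid1 and Snora26. Snora26 was measured there at 0.036 and 29.6 FPKM in wild type and at 103 and 0 FPKM in knockout, so its genotypes overlapped. Snord82 was listed at 0 in all 4 libraries there. Across 10927 genes tested in both tables Pearson's r of the differences was 0.324, a description across genes that are not independent.

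**Figure D4:**
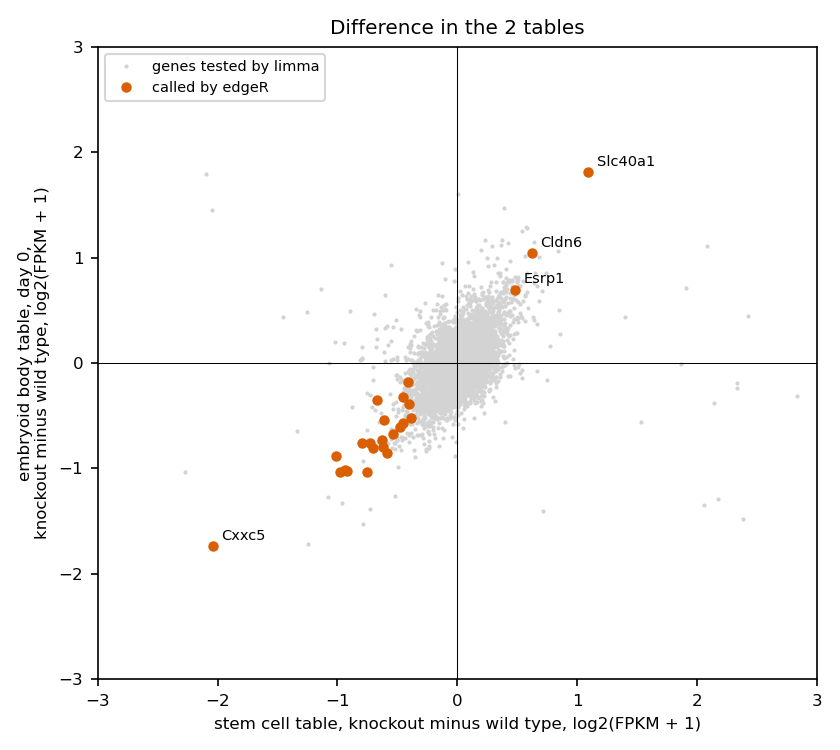
Each grey dot is 1 gene tested by limma in the stem cell table, with its log2(FPKM + 1) difference there on the x axis and at day 0 of the embryoid body table on the y axis; orange marks genes called by edgeR. The orange points lie in the lower left and upper right, Psd2 and Sall3 were not tested by limma and are not drawn, and 24 genes lie beyond the axes, which end at 3.

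At day 0 of the embryoid body table Cxxc5 was measured at 31.4 and 25.1 FPKM in wild type and at 6.87 and 8.64 FPKM in knockout. Slc40a1 was measured there at 2.33 and 1.73 FPKM in wild type and at 9.15 and 10.03 FPKM in knockout, without overlap. Limma called these 2 of the 26 at day 0, with adjusted p of 0.0173 and 0.00551, among 46 calls in 12472 genes (0.369%). Nid1 was measured at 28.2 and 28.8 FPKM in wild type and at 13.05 and 13.7 FPKM in knockout, and its adjusted p was 0.0552. Gbx2, at 32.4 and 29.6 against 15.1 and 19.6 FPKM, and Cldn6, at 18.2 and 13.7 against 34.9 and 32.6 FPKM, were likewise apart. Of the 46 day 0 calls 44 were tested in the stem cell table, where 41 had the same direction and 16 lay wholly apart in it. Over all genes tested the same direction was found in 64.2%, and 8.34% lay wholly above and 5.85% wholly below wild type in the stem cell table.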

How the data were processed

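RNA was sequenced as paired-end reads with ERCC spike-ins, and per the labels' protocols the reads went through Trim Galore 0.4.1 and then TopHat2 2.0.13 on mm10. Cufflinks 2.2.1, Cuffdiff and HTSeq 0.6.1 are named in the submitters' processing notes. Neither the gene annotation nor the strandedness is stated. The authors deposited FPKM and, in the same stem cell table, estimated counts of raw fragments, 97.9% of them whole numbers, for 24462 genes and 92 spike-ins. 5 values of 4 genes are marked as failed in the table. The embryoid body table holds deposited FPKM of 12 libraries.

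The main test was limma 3.58.1 (R 4.3.3) on log2(FPKM + 1) with a variance trend, over the 6 replicates, two-sided, for genes with a mean of at least 1 FPKM, adjusted by Benjamini-Hochberg, threshold 0.05. That design assumed FPKM alone. Since counts were present, edgeR 4.0.16 (quasi-likelihood, TMM, filterByExpr) and DESeq2 1.42.0 were run on rounded counts as alternatives, and edgeR is given beside limma. The log2(FPKM + 1) scale understates the change of low genes. The embryoid body differences come from limma over its 12 libraries. An exact permutation test of 3 against 3 cannot give a two-sided p under 0.1. The p-values measure the spread between table replicates, which may be technical. The limma and edgeR fits were also run on simulated data, limited to genes above 0 in all 6 replicates. That simulation left out genes such as Snord82 and Snora26, and its recovery is not given here.

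Genes were named by a rule: Cxxc5, 23 pluripotency and methylation genes whatever their values, limma calls with replicates apart (up to 12 in each direction) and list members past the threshold. The edgeR calls and other list members were named after their values were seen. The members and lists were chosen with earlier results of these data known. Gene positions come from RefSeq on mm10, where 12244 symbols matched directly, 375 through a synonym, and 18 had no match. Alternatives were the pseudocount, the filter, scaling, the variance model, each replicate left out, a replicate block, edgeR and DESeq2. ChIP-seq was not analysed here.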

Additional observations from a re-analysis of the deposited data

Results flagged for a closer look

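The ERCC spike-in RNAs were outside every comparison, and their share of fragments differed between genotypes. They took 0.0100%, 0.0148% and 0.00947% of the fragments in the wild type replicates and 0.0670%, 0.0859% and 0.0775% in the knockout replicates. The means were 0.0114% ± 0.00294 (SD, n = 3) and 0.0768% ± 0.00947 (SD, n = 3), a ratio of 6.72. The conditions did not overlap. How much spike-in each sample received is not stated in the labels, so spike-in added and RNA per sample cannot be told apart. Scaling to the spike-ins would shift the log2 difference of every gene by -2.77, and all differences reported here are relative to the mapped fragments of each replicate.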

How the results depend on the processing

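Limma called 2 genes higher and 2 lower. The higher count stayed at 2 under pseudocounts of 0.1 and 0.5, no filter, a mean FPKM of at least 5, median-of-ratios scaling (a shift of -0.01), quantile normalization, no variance trend and the replicate block. It went to 1 with robust empirical Bayes, 7 with array weights, 4 by edgeR, 21 by DESeq2 and 0 with at least 10 fragments, the last chosen after seeing the data. The lower count went to 1 with no filter, no variance trend and the replicate block, 12 with array weights, 22 by edgeR and 43 by DESeq2. With 1 replicate left out, 2 to 5 genes were higher and 1 to 3 lower. The table's indices share only a number: same-index deviations correlated at 0.07, -0.07 and -0.09, so the replicate block is no pairing. The other alternatives of edgeR were chosen after seeing the data. EdgeR's 4 higher and 22 lower became 19 and 52 with no filter on low counts, 3 and 24 on limma's genes and 4 and 25 with median-of-ratios factors. With 1 replicate left out they ranged from 0 to 106 higher and from 2 to 82 lower. All 26 edgeR calls were among DESeq2's 64. The same direction at day 0 held for 2 or 3 limma calls and for 26 edgeR calls with 1 embryoid body replicate left out, and for 2 limma calls among those with an absolute log2 difference of at least 1, where Snord82 was listed at 0. Among 918 other values of named genes, 60 passed the threshold where the main limma fit did not, and 9 failed it where that fit passed. Another 15 changed sign, none past a threshold. Uhrf1 went to -0.00713 under median-of-ratios scaling, -0.052 under quantile normalization and -0.00156 by edgeR. Tet1 went to -0.00816 under quantile normalization and -0.0289 with array weights. With 1 replicate left out, the log2 difference ranged from -0.0592 to 0.0585 for Uhrf1, -0.32 to 0.0907 for Zfp42, -0.421 to 0.028 for Klf2, -0.118 to 0.00292 for Sox2, -0.0734 to 0.0147 for Dnmt1 and -0.0341 to 0.098 for Tet1. The causes were not tested. Depth limits Snord82, Snora26 and Psd2, and 134 genes tested by limma had a mean under 10 fragments.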

Other observations

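The 26 genes called by edgeR in stem cells were also measured in later embryoid bodies. Limma over the 12 embryoid body libraries called 3 of them at day 3 (Cxxc5, Ntn1 and Slc40a1) and 10 at day 6. Of all 12472 genes tested there it called 1.19% at day 3 and 34.1% at day 6, so the share of the 26 called at day 6 lies near that of all genes. Cxxc5 stayed lower, with log2 differences of -2.30 at day 3 and -2.01 at day 6, and Ntn1 did too, with -1.03 and -0.81. Sfrp1 and Jam2 were also lower at day 6, with -1.23 (adjusted p 0.00356 by limma) and -0.65 (0.0495). Psd2 was higher at day 6 by 2.20 (adjusted p 5.9e-05). Slc40a1 differed by 0.99 at day 3 and by 0.25 at day 6, where its adjusted p was 0.204.

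Several genes that were lower in stem cells were higher in knockout at day 6, when 34.1% of all genes tested were called in either direction. The share of all genes called higher was not counted. Nid1 differed by 0.89 (adjusted p 0.00872), Vim by 1.35 (0.0263), Bcorl1 by 0.75 (0.0104), Ppp1r9b by 0.47 (0.0144) and Gli2 by 0.42 (0.0176) at day 6. At day 0 of the same table their differences were -1.04, -1.04, -0.67, -0.18 and -0.53, none of them past the threshold. The change of the knockout difference from day 0 to day 6 was not tested here.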
